A study of Mus musculus with 4 samples.

Results

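Topologically associating domains (TADs) longer than 2000 kb were taken from the autosomes in the TAD lists of 2D-cultured and 3D-cultured AML12 cells. The regions were chosen by their called size, end minus start over 2000 kb, and size is given below as a description only. The 2D list held 224 such long TADs among 4221 autosomal TADs, and the 3D list held 233 among 4094. The 457 long TADs of both lists compare with 8822 TADs in all when chromosome X, which was left out of the long TADs, is counted too. AML12 is an immortalized mouse hepatocyte line, and both cultures are of this 1 line. The 2D-cultured cells grew in dishes and the 3D-cultured cells grew embedded in Matrigel, and all cells were held at the G1/S boundary with 1 mM hydroxyurea, for 24 h in 2D and 36 h in 3D. In situ Hi-C, which ligates and sequences chromatin fragments lying close together in the nucleus, was done on 2 replicates per culture, 4 samples in all. The replicates were combined before TADs were called at 40 kb resolution, so each culture has 1 list with no replicate error, and the number of read pairs behind a TAD is unknown. The lists hold positions only, so the cell type could not be checked against marker genes. The cultures also differed in time under hydroxyurea and in sequencing depth, which the authors scaled before calling, and what these contributed to a difference between the lists cannot be told apart from culture.

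A TAD is a stretch of a chromosome whose loci contact each other more often than they contact loci outside it. Many TAD borders of mammals carry sites of CTCF, a zinc finger protein that halts the loop-extruding cohesin ring, and borders are often rich in active gene promoters. Stretches of the genome that hold few genes, called gene deserts, are typically AT-rich, and some flank or contain genes of development and of the nervous system with distant enhancers.

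Some long TADs held a single protein-coding gene start, and the promoters of 4 such genes are shown. These 4 are richer in CG pairs than the AT-rich sequence around them, which is not so of every lone gene. The window of 300 bases runs from 250 bases before to 50 bases after the gene's start in GENCODE M21, the sequence is that of RefSeq GRCm38.p6 (mm10), it reads 5′ to 3′ along the gene's strand, and CG pairs are in capitals. The genes are those of the 4 longest TADs with a single start, and these were the same 4 genes in both lists. They are Cdh8 (chr8:99416422-99416721, minus strand) and Cdh20 (chr1:104768279-104768578, plus strand), which encode type II cadherins, Tenm2 (chr11:37235915-37236214, minus strand), which encodes a teneurin of synapses, and Nova1 (chr12:46818880-46819179, minus strand), which encodes a neuronal splicing regulator.
Cdh8: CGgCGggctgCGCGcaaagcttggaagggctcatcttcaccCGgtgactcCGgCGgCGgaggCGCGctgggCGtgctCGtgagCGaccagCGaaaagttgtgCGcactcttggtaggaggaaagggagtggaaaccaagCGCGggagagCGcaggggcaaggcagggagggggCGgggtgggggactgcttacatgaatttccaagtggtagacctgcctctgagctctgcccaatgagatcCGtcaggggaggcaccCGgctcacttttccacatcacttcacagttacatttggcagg
Cdh20: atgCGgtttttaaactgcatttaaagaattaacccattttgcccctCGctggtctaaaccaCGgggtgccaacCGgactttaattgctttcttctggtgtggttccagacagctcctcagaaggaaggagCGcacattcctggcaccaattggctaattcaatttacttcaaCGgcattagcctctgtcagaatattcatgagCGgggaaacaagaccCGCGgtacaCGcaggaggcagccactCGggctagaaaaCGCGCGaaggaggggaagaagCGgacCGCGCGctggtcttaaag
Tenm2: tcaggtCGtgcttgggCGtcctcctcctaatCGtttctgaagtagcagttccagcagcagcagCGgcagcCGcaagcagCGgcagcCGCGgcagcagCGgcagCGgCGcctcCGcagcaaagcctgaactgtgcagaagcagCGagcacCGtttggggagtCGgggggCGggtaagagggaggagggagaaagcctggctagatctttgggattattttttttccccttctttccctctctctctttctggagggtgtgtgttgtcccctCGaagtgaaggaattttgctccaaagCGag
Nova1: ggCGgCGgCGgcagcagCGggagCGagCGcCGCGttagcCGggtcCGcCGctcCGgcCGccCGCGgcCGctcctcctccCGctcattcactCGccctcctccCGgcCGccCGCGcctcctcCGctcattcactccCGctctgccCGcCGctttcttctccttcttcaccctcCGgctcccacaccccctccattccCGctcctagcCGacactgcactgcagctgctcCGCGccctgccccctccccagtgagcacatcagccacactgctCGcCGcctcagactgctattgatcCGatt
The Cdh8 promoter held 21 CG pairs with 62.3% GC, inside a 4920 kb 3D TAD whose mean GC was 37.7%. The Nova1 promoter held 34 CG pairs with 71.3% GC, in a 4160 kb 3D TAD with 37.3% GC. The Cdh20 and Tenm2 promoters held 18 CG pairs each, with 51.3% and 58.7% GC. They lay in 3D TADs of 4720 and 4680 kb with 38.0% and 38.3% GC. The median GC of all autosomal promoters was 55.3%, above that of the Cdh20 promoter. As many CG pairs or more were found in 30.1% of all autosomal promoters for Cdh8, in 36.9% for Cdh20 and Tenm2 and in 8.70% for Nova1. A RefSeq promoter had the same start for Cdh8 but not for Cdh20, Tenm2 or Nova1, whose values hold for the GENCODE start only. Bases soft-masked as repeats numbered 23 of the 300 for Cdh8, 25 for Cdh20, 96 for Tenm2 and 72 for Nova1.

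The second set of sequences comes from the borders of the 3 longest TADs of each list, where the core of the CTCF motif was searched on both strands in the 40 kb bins on either side of each end. The core has 12 letters, of which positions 4 and 5 are free and the other 10 are those in capitals below. This search found 3 matches, at borders that end a long TAD in both lists. Each is printed along the strand of the match with 8 flanking bases on either side, and the match is in capitals.
chr1:149856873-149856884, plus strand: ccctgttaCCACAAGGGGGCgccaggcc
chr3:69898120-69898131, minus strand: caaaagttCCAGAAGGGGGCagcatgag
chr3:69944424-69944435, minus strand: caccagggCCAAAAGGGGGCagtgggtg
The first and the second lay just outside the long TAD and the last one just inside it, in a soft-masked repeat, and all 3 pointed out of it. A match to these letters is a description and not a binding site.

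The long TADs made up a small part of the lists by number and a large part by length. The 224 of 2D were 5.31% of the autosomal TADs and spanned 672 Mb, which was 31.1% of the sequence in autosomal TADs and 27.3% of the autosomes. The 233 of 3D were 5.69% of the TADs and spanned 718 Mb, 32.3% of the sequence in TADs and 29.1% of the autosomes. In 2D they had a median size of 2860 kb with quartiles of 2320 and 3440 kb, and in 3D the median was 2880 kb with quartiles of 2360 and 3520 kb. Sizes ran from 2040 to 5720 kb in 2D and from 2040 to 5960 kb in 3D. At most sizes the lists held like numbers, with 79 and 76 TADs up to 2500 kb, 54 and 55 from there to 3000 kb, 63 and 69 to 4000 kb, 21 and 24 to 5000 kb, and 7 and 9 above that, in 2D and 3D respectively. Just outside the threshold, 5 TADs of 2D and 8 of 3D measured exactly 2000 kb, with a median of 6 and 4.5 gene starts. Just inside it, 11 and 7 measured 2040 kb, with a median of 3 gene starts in both lists, and those of 2080 kb had a median of 6.5 and 6, so the numbers showed no step at the threshold.

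Long TADs occurred on every autosome. Chromosome 19 had the fewest, 3 in either list or 4.88 per 100 Mb. Chromosome 8 had the most for its length, with 17 in 2D and 16 in 3D, or 13.1 and 12.4 per 100 Mb, and they covered 38.7% and 38.1% of it. The 3D list had more of them on 10 autosomes, fewer on 5 and as many on 4. Chromosome 7 went from 10 in 2D to 14 in 3D.

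The median long TAD held as many gene starts as the median of the other TADs, while the mean was higher. The median was 3 protein-coding gene starts per long TAD in both lists, with quartiles of 2 and 6. The median over all other autosomal TADs was also 3, with quartiles of 1 and 4 in 2D and of 2 and 5 in 3D. Their median sizes were 200 kb in the 2D list and 240 kb in the 3D list. TADs of 1000 to 2000 kb had a median of 4 gene starts in both lists. The mean was 7.85 gene starts per long TAD against 3.58 in the other TADs in 2D, and 7.82 against 4.06 in 3D. Per length the long TADs were sparse. The median was 1.22 gene starts per Mb in 2D (95% interval of the median 0.98 to 1.47) against 8.93 in the other TADs, and 1.17 (1.04 to 1.39) against 10.0 in 3D. Pooled over all their bases, which gives weight to the few TADs crowded with genes, the density was 2.61 against 9.60 in 2D and 2.54 against 10.4 in 3D. TADs of 1000 to 2000 kb lay between in the medians, at 2.68 gene starts per Mb in both lists. The density was below the median of the other TADs in 209 of 224 long TADs of 2D and in 219 of 233 of 3D, and the median over the long TADs was the lower one on 19 of 19 autosomes in both lists. Intervals of this kind cover the spread among TADs, not that among replicates of a culture, which the lists do not hold.

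**Figure D1:**
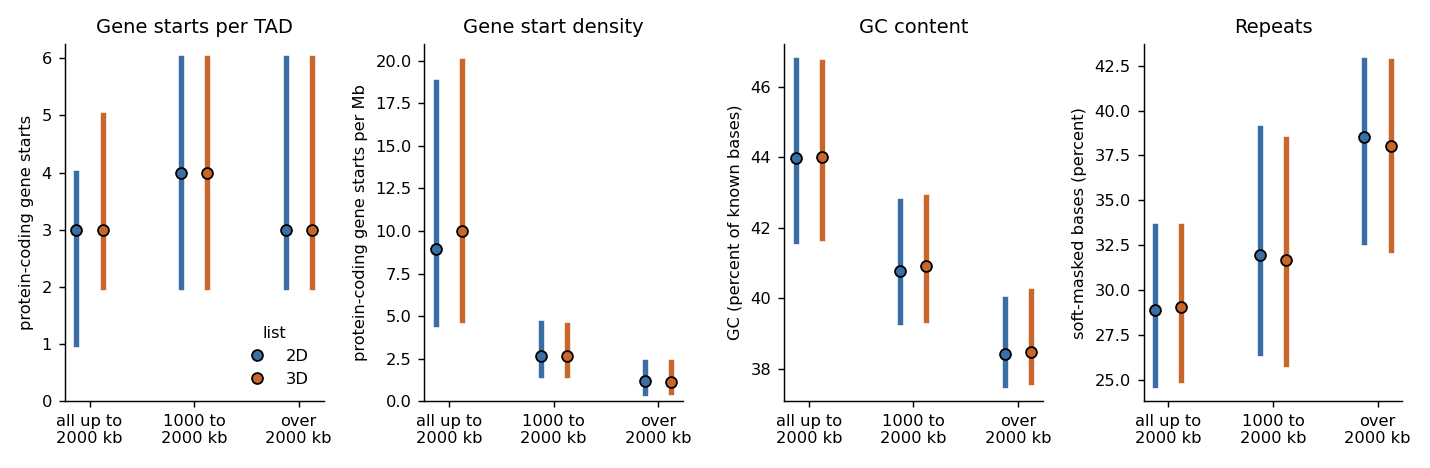
Protein-coding gene starts per TAD, gene starts per Mb, GC percent and percent of soft-masked bases (y axes) in 3 size classes of autosomal TADs (x axis), for the 2D list in blue and the 3D list in orange; points are medians and bars run from the first to the last quartile, and the class up to 2000 kb includes that of 1000 to 2000 kb. The number of gene starts per TAD has a median of 3 in TADs over 2000 kb and in all others, while GC falls from 44.0% to 38.4% in 2D and 38.5% in 3D.

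Altogether 1758 of the 20807 autosomal protein-coding genes (8.45%) started in a long TAD of 2D and 1823 (8.76%) in one of 3D, and 1594 did so in both. No gene started in 8 long TADs of 2D and 10 of 3D, a single gene in 40 and 34, from 2 to 5 genes in 107 and 122, and more than 5 in 69 and 67. The share with no start was 3.57% and 4.29%, beside 6.25% and 4.87% of the other TADs. The longest stretch without a gene start had a median of 1695 kb for 2D and 1701 kb for 3D. It exceeded 1000 kb in 184 of 224 and 191 of 233 long TADs, and took up a median of 57.8% and 55.1% of their length. No value was computed for starts placed at random, so these lengths do not show uneven placement. The longest such stretch measured 4529 kb and lay in the Cdh20 TAD (chr1:100240001-104960000), which was identical in both lists. Protein-coding gene bodies covered a median of 22.9% of a long TAD in 2D against 59.4% of the other TADs, and 23.8% against 60.3% in 3D.

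Among the long TADs with a single gene, 31 genes were alone in both lists. The list of neuronal and synaptic adhesion genes supplied 18 of the 40 lone genes of 2D and 17 of the 34 of 3D, beside 54 of the 1758 genes that start in any long TAD of 2D and 96 of all 20807 genes. Named after their values were seen, they included Lsamp, Cntnap2, Pcdh9, Pcdh17 and Slitrk1, all of which encode neuronal adhesion proteins, and Epha5, Epha6 and Epha7, receptors of ephrins. The lone genes had a median length of 299 kb for 2D and 377 kb for 3D, beside 10.4 and 11 kb for all genes starting in long TADs. Their promoters held from 0 to 44 CG pairs, and 26 of 40 and 22 of 34 held at least 10, beside 54.5% of all autosomal promoters.

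At the other end, 16 long TADs of 2D and 17 of 3D held more than 20 gene starts, and receptor gene clusters of the olfactory system dominated them. Of the 884 gene starts in those of 2D, 559 were of olfactory or vomeronasal receptors, and of the 905 in 3D, 550 were. More than 1 in 2 of the starts were such receptors in 8 of the TADs in each list, and 6 in 2D and 7 in 3D held none. The fullest was the olfactory receptor cluster of chromosome 2, with 230 starts in 5040 kb in 2D (chr2:85120001-90160000) and 228 in 4920 kb in 3D (chr2:85240001-90160000), of which 213 were receptors in both. The 3D list placed the first 120 kb of the 2D TAD, with 2 gene starts, in a TAD of its own. This cluster was gene-dense and AT-rich at once, with 37.1% GC in the 2D TAD. The counterpart pair chr9:37960001-40240000 was identical in both lists and held 92 starts, 86 of them receptors.

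Gene groups differed widely in how often their members started in a long TAD, beside 8.45% of all genes in 2D and 8.76% in 3D. Neuronal and synaptic adhesion genes did so in 54 of 96 cases in 2D (56.2%, 95% Wilson interval 46.3 to 65.7) and 56 of 96 in 3D (58.3%, 48.3 to 67.7), and 53 were in long TADs of both lists. They were spread over 50 long TADs in each list, at most 2 in any of them. Genes of glutamate and GABA receptors, the main excitatory and inhibitory receptors of neurons, followed with 19 of 36 (52.8%) in 2D and 20 of 36 (55.6%) in 3D, up to 4 in 1 TAD. That TAD, chr5:69560001-72160000, held Gabrg1, Gabra2, Gabra4 and Gabrb1. Olfactory receptor genes reached 46.8% (509 of 1087) in 2D and 43.4% (472) in 3D, and all 472 of 3D were also in a long TAD of 2D. Only 10 long TADs of 2D and 8 of 3D held them. Among those of 2D was chr2:110200001-112240000, 2040 kb long with 36 receptor genes. Its 3D counterpart measured 2000 kb and so fell outside the threshold. Vomeronasal receptor genes, for receptors of pheromones, counted 67 of 326 (20.6%) in 2D and 86 (26.4%) in 3D. The genes of a cluster share a TAD, so that a few TADs set the counts of the olfactory and vomeronasal groups. The lists also differed in gene length, with medians of 367 kb for the adhesion genes and 216 kb for the glutamate and GABA receptor genes. Olfactory and vomeronasal receptor genes had medians of 5.98 and 10.3 kb, and all genes 17.6 kb. Shares by gene length are given below, and what length contributed to those of the lists was not tested.

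Other lists lay near or below the share of all genes. Developmental transcription factor genes counted 29 of 263 (11%, 7.79 to 15.4) in 2D and 31 (11.8%) in 3D, among them Sox9, a factor of cartilage and testis development, Pou3f2, Meis1, Zic1 and the Dlx5 and Dlx6 pair. Zinc finger genes of the Zfp series counted 25 of 383 (6.53%) and 30 (7.83%), and voltage-gated potassium channel genes 3 of 29 (10.3%) in both. Cytosolic ribosomal protein genes counted 2 of 79 (2.53%, 0.70 to 8.77) and 1, cytochrome P450 genes 1 of 94 (1.06%, 0.19 to 5.78) and 2, and NADH dehydrogenase subunit genes 1 of 34 in both. Hepatocyte function genes, which are the specialized genes of the cell type AML12 derives from, counted 5 of 60 (8.33%, 3.61 to 18.1) in 2D and 4 (6.67%) in 3D, near the share of all genes. These were Cps1, which encodes the first enzyme of the urea cycle, in TADs of 2280 and 2240 kb, Cyp7a1, the rate-limiting enzyme of bile acid synthesis, in TADs of 2360 kb, and the uptake transporter gene Slco1b2 with the liver glycogen synthase gene Gys2 in a 2080 kb TAD identical in both lists. The haptoglobin gene Hp lay in a 2040 kb TAD of 2D, whose 3D counterpart of 1960 kb fell under the threshold.

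**Figure D2:**
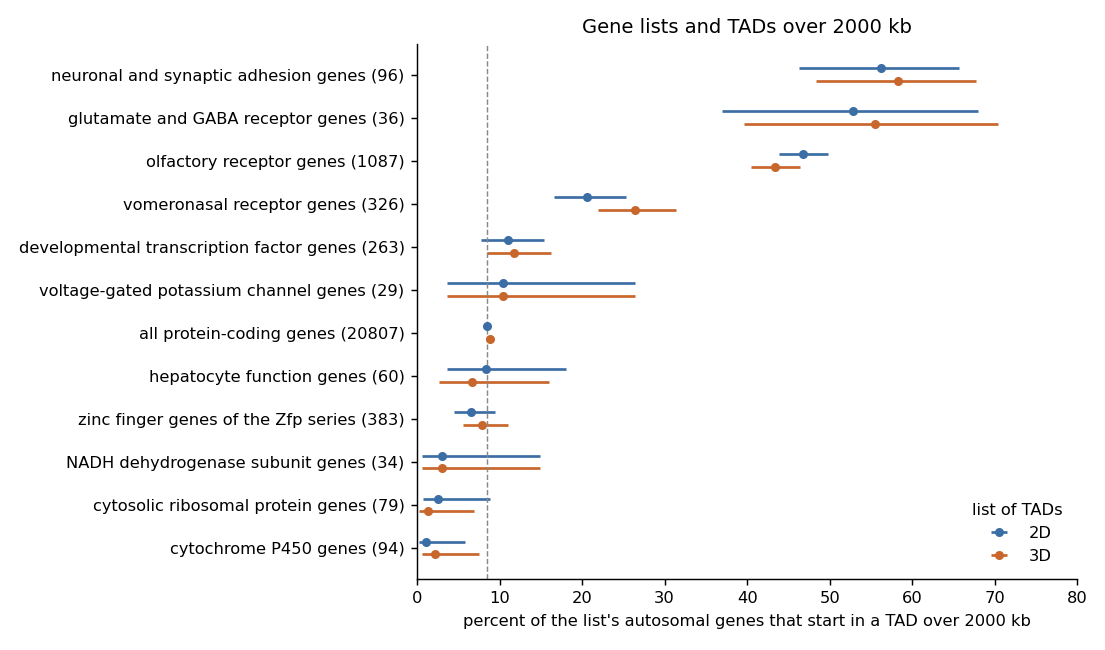
Percent of each list's autosomal protein-coding genes (x axis; list size in parentheses) that start in a TAD over 2000 kb of the 2D list (blue) or the 3D list (orange), with 95% Wilson intervals that cover counting error only; the dashed line marks all protein-coding genes in 2D, 8.45%. Neuronal adhesion genes (56.2% and 58.3%) stand highest and cytochrome P450 genes lowest in 2D (1.06%).

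Very long genes were concentrated in these regions. Of 55 autosomal genes longer than 1000 kb, 34 (61.8%, 48.6 to 73.5) started in a long TAD of 2D and 36 (65.5%, 52.3 to 76.6) in one of 3D. From 500 to 1000 kb the shares were 60 of 163 (36.8%) and 70 of 163 (42.9%), and shorter genes lay lower with no steady order, at 10.9% and 11.6% from 100 to 500 kb, 5.03% and 5.35% from 10 to 100 kb, and 11.9% and 12% up to 10 kb. Of the genes over 500 kb that started in a long TAD, 77 of 94 lay wholly inside it in 2D and 91 of 106 in 3D. Ptprd, for a receptor tyrosine phosphatase of synapses, is 2271 kb long and ran out of its TAD in both lists, as did Cntnap2, at 2245 kb, and Lsamp, at 2197 kb, the last by less than a 40 kb bin. Lrp1b, for a receptor of the LDL receptor family, is 2058 kb long and lay wholly inside a 4320 kb TAD (chr2:39360001-43680000) identical in both lists. Csmd1, at 1643 kb, and Ctnna3, at 1574 kb, lay inside TADs of 3560 and 3440 kb identical in both lists. Macrod2, at 1998 kb, lay inside TADs of 2680 and 2600 kb, and Magi2, at 1478 kb, inside TADs of 2760 and 2720 kb, in 2D and 3D respectively. Fhit, a 1612 kb gene across a common fragile site, lay in a 2960 kb TAD of 2D and in a 3800 kb TAD of 3D that joined this TAD to its neighbour. Pcdh15, a cadherin gene of inner ear hair cells, ended within a 40 kb bin of the end of its 3240 kb TAD in 2D and lay inside the 3520 kb TAD of 3D, a difference in containment that the lists do not resolve.

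Long TADs were AT-rich and rich in repeats. The median GC content was 38.4% in the long TADs of 2D (95% interval of the median 38.1 to 38.8) against 44.0% in the other TADs, and 38.5% against 44.0% in 3D. TADs of 1000 to 2000 kb stood at 40.8% and 40.9%. GC was below the median of the other TADs in 212 of 224 and 219 of 233 long TADs, and the median over long TADs was lower on 19 of 19 autosomes. CG pairs numbered 5.67 per kb against 10.4 in 2D and 5.72 against 10.5 in 3D. Soft-masked repeats, mostly remains of transposable elements, took up 38.5% against 28.9% of the bases in 2D and 38.1% against 29.0% in 3D. GATC, the site cut by the MboI enzyme of the Hi-C protocol, had a median of 2.50 per kb in long TADs and 2.44 in the others in both lists. Unknown bases occurred in 11 and 14 long TADs and reached 1.62% at most. The most GC-rich long TAD was chr4:152440001-154840000, identical in both lists, with 50.3% GC and 18 gene starts, among them Prdm16, a regulator of brown fat, and the p53 relative Trp73. The least GC-rich was chr15:15160001-19360000 in 2D, with 36.2% GC and the cadherin genes Cdh9 and Cdh10, and chr14:93920001-95960000 in 3D, also at 36.2%.

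The promoters of genes that start in long TADs were also poorer in CG pairs, with a smaller difference once receptor genes were left out. The median promoter held 2.5 CG pairs in 2D and 3 in 3D, against 13 for the other autosomal genes. With olfactory and vomeronasal receptor genes left out, an alternative chosen after seeing the data, the medians were 7 against 14 in both lists. At least 10 CG pairs were found in 28.3% of the promoters in long TADs of 2D and 29.6% of those of 3D, against 56.9% of the other promoters. The Cdh8, Cdh20, Tenm2 and Nova1 promoters printed above are of the CG-rich kind.

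Genes were denser toward the ends of long TADs. In 2D the density was 8.31 gene starts per Mb in the first 40 kb inside either end, 3.98 from 40 to 200 kb, 2.82 from 200 to 400 kb, 2.34 from 400 to 1000 kb and 1.97 beyond 1000 kb. In 3D the same zones held 7.89, 4.02, 2.49, 2.33 and 1.96 gene starts per Mb. Just outside, within 40 kb of an end, the density was 11.2 in 2D and 11.6 in 3D, above the 8.45 of all autosomal bins. The outer 200 kb at either end thus held 4.84 gene starts per Mb against 2.27 in the remainder in 2D, a ratio of 2.13, and 4.80 against 2.2 in 3D, a ratio of 2.18. GC declined along the same path, from 41.2% in the first 40 kb to 37.7% beyond 1000 kb in 2D and from 41.4% to 37.9% in 3D, with 41.9% over all autosomal bins.

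The CTCF core motif followed the ends as well. The 40 kb bins on either side of an end held a match in 106 of 896 cases in 2D (11.8%, 9.88 to 14.1) and 118 of 932 in 3D (12.7%, 10.7 to 15.0). The inner bins did so in 4.47% and 4.65% of cases, and all 40 kb autosomal bins in 9.63%. The border bins thus lay somewhat above the genome's bins, and the interior lay well below them. By direction, 27 of the 53 matches in the bins just inside the ends pointed into the long TAD in 2D (50.9%, 37.9 to 63.9) and 34 of 62 in 3D (54.8%, 42.5 to 66.6). In the bins just outside, 21 of 70 (interval 20.5 to 41.5%) and 23 of 74 (21.7 to 42.3%) pointed into it, so that most pointed away, as did the first and the second of the printed matches.

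**Figure D3:**
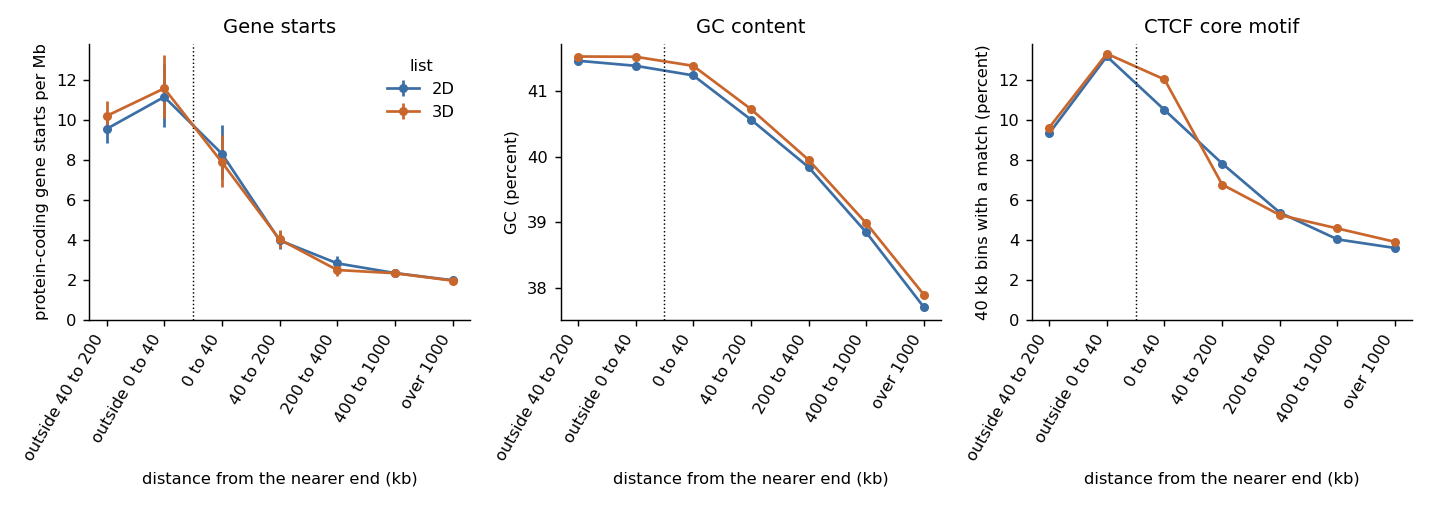
Protein-coding gene starts per Mb with 95% Poisson counting intervals, GC percent (axis not from 0) and percent of 40 kb bins with a CTCF core match (y axes), in zones by distance from the nearer end of a long TAD in kb (x axis, zones of unequal width); blue is 2D, orange 3D, and the dotted line is the end of the TAD. In 2D gene starts fall from 11.2 per Mb just outside to 1.97 beyond 1000 kb inside.

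The neighbours of long TADs were mostly small. The median neighbour measured 280 kb for 2D and 320 kb for 3D, beside 240 and 280 kb for the neighbours of the other TADs. A long TAD touched a TAD on both sides with no gap in 127 of 224 cases in 2D (56.7%, 50.1 to 63.0) and 140 of 233 in 3D (60.1%, 53.7 to 66.2), beside 42.8% and 54.5% of the other TADs. Of the neighbours, 50 of 448 in 2D (11.2%, 8.57 to 14.4) were themselves longer than 2000 kb, and 52 of 465 (11.2%) in 3D, beside 5.00% and 5.37% of the neighbours of the other TADs. Each pair of adjoining long TADs was counted from either side, so this interval is too narrow. Neighbours that were not long had a median GC of 41.8% in both lists, between that of the long TADs and the 44.2% of TADs beside no long TAD. GC was below that of both neighbours in 163 of 224 long TADs of 2D and 169 of 232 of 3D, and above both in 7 and 9. The same count was not made for the other TADs.

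Long TADs in a row formed 22 runs in 2D and 24 in 3D, with 47 and 50 long TADs in them. The run of greatest length covered chr15:15160001-24600000 in 2D, with TADs of 4200, 2080 and 3080 kb. In 3D it covered chr15:14080001-24600000, where the first TAD measured 5280 kb. It held 5 gene starts, of which Cdh9, Cdh10, Cdh12 and Cdh18 encode type II cadherins. Another run of 3, chr5:77400001-86040000 in 2D, held Igfbp7, Adgrl3, Tecrl and Epha5, and the 3D list had 3 TADs over all but its first 40 kb. A run of 2 on chromosome 8 (chr8:95920001-104240000) spanned the same stretch in both lists and held Cdh8, Cdh11 and Cdh5, which are cadherin genes too, and Bean1.

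At a distance of 40 kb the other culture had the same TAD for most long TADs. A counterpart, meaning a TAD of the other list with both ends within 40 kb, existed for 152 of 224 long TADs of 2D (67.9%, 61.5 to 73.6) and 148 of 233 of 3D (63.5%, 57.2 to 69.4), beside 66.7% and 69.1% of the other TADs. Both ends were identical in 89 cases, or 39.7% and 38.2% of the long TADs. Among the 152 pairs, 91 had the same size, 16 were longer in 3D and 45 shorter, by at most 80 kb. Both ends matched a border of the other list, though not always of 1 TAD, in 169 long TADs of 2D and 186 of 3D, and neither end did in 4 and 3. No border of the other list lay more than 40 kb inside the ends of 190 of 224 long TADs of 2D and 173 of 233 of 3D.

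The cultures differed in how often one divided a long TAD of the other. The 3D list had at least 2 TADs inside 13 of the 224 long TADs of 2D (5.80%, 3.42 to 9.67), and the 2D list had at least 2 inside 43 of the 233 of 3D (18.5%, 14.0 to 23.9). Conversely, 38 long TADs of 2D (17%) and 25 of 3D (10.7%) were parts of a longer TAD of the other list. The same order held among all TADs up to 2000 kb, of which the other list divided 1.70% in 2D and 5.83% in 3D, while among TADs of 1000 to 2000 kb the shares were 9.34% and 10.8%. The lower share in 2D was thus also seen over all TADs up to 2000 kb. In the class of 1000 to 2000 kb, nearest in size, the shares lay close together with overlapping intervals (6.76 to 12.8 and 7.93 to 14.5). The divided long TADs had 2 TADs of the other list inside in 12 cases of 2D and 36 of 3D, and 3 in 1 and 7. These inner TADs reached both ends of the long TAD within 40 kb in 11 of the 13 and 32 of the 43. In the remaining cases they did not make up its whole length. The largest TAD of the other list covered more than 90% of a long TAD in 210 of 224 cases in 2D and 192 of 233 in 3D.

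**Figure D4:**
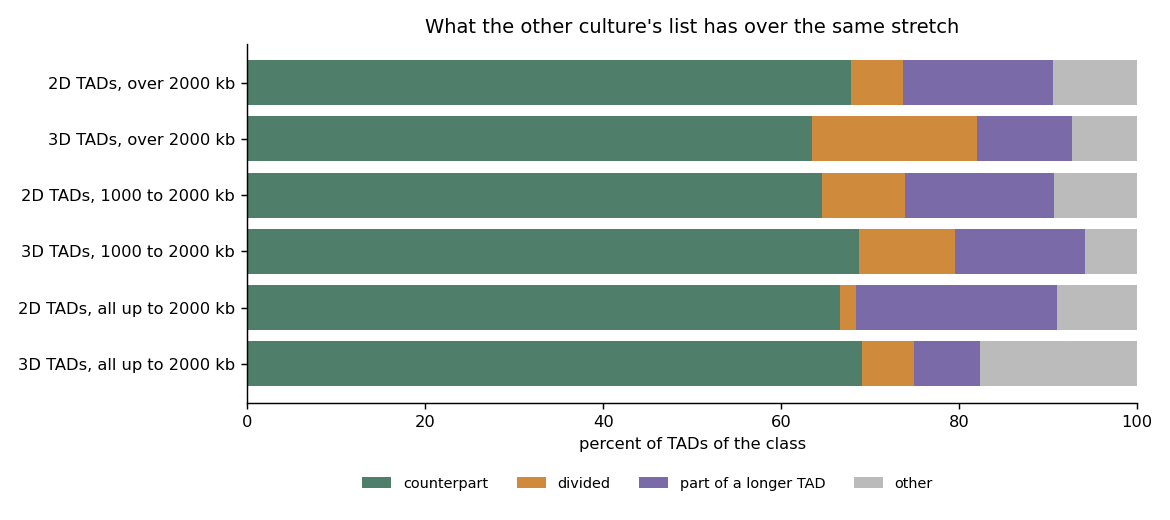
Percent of TADs (x axis) by what the other culture's list has over the same stretch, for the 2D and 3D TADs over 2000 kb, of 1000 to 2000 kb and of all sizes up to 2000 kb (y axis). Green is a counterpart with both ends within 40 kb, orange at least 2 TADs inside, purple a part of a longer TAD and grey any other arrangement; the orange share is 5.80% for long 2D TADs and 18.5% for long 3D TADs.

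The borders that divided long TADs of one culture had a gene start nearby more often than other positions there, as a description of these lists. The 68 borders of 2D inside divided 3D TADs had a gene start within 40 kb in 18 cases (26.5%, 17.4 to 38.0), beside 11.7% of all 40 kb positions inside the same TADs. A CTCF core match lay in the bins beside 15 of them (22.1%, 13.8 to 33.3), beside 9.93% of positions. For the 17 borders of 3D inside divided 2D TADs the counts were 5 and 5 (29.4%, 13.3 to 53.1), beside 21.5% and 7.47% of positions, with intervals too wide to separate the first from its background. Several borders can lie close together in the same long TAD, so all of these intervals are too narrow. The dividing borders of 2D lay a median of 740 kb from the nearer end of the 3D TAD. The 2D TADs inside, called pieces here, numbered 93 with a median of 1320 kb, and 25 of them were still longer than 2000 kb. All gene starts in the pieces fell in 1 piece in 16 of the 43 divided TADs of 3D, and 21 of the 93 pieces held none.

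The longest TADs of each list showed these arrangements one by one. The longest of 2D, chr12:59200001-64920000 (5720 kb, 37.3% GC), held Lrfn5, for a synaptic adhesion protein, 2323 kb from its nearer end, with Fbxo33, Fscb and Gm527, and had a counterpart of 5680 kb. That counterpart was also among the 3 longest of 3D, and it left out the first 40 kb, where Fbxo33 starts. The next of 2D, chr1:144360001-149840000 (5480 kb, 36.7% GC), held Rgs21 and Rgs18, regulators of G protein signalling, and Brinp3. The 3D list divided it into 3080 kb with all 3 gene starts and 2240 kb with none, 120 kb apart. The last of the 3, chr3:69920001-75320000 (5400 kb), was identical in 3D and held Slitrk3, a synaptic adhesion gene, the sucrase-isomaltase gene Sis, the butyrylcholinesterase gene Bche, Otol1, Zbbx and Serpini2.

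In 3D a pair of TADs shared the greatest length, 5960 kb. One of them, chr1:24800001-30760000, held Adgrb3, an adhesion G protein-coupled receptor gene of synapses, and a pair of other starts. The 2D list had a border inside it, between TADs of 1440 and 5080 kb, the first of which began outside. The other, chr16:78640001-84600000, held Ncam2, a neural cell adhesion gene, with Chodl, Tmprss15, Gm21833 and A730009L09Rik, and the 2D list divided it into TADs of 3720, 120 and 2160 kb. Of the 2D list's TADs in chr3:45080001-50360000 (5280 kb; protocadherin genes Pcdh10 and Pcdh18, and Pabpc4l), 3 lay inside, with 3680, 120 and 840 kb, and gaps between them lay in no TAD. The 2D TAD that held the most of 3D, chr5:45560001-48400000 (2840 kb), was cut near its left end into 160, 200 and 2520 kb, and Slit2, an axon guidance gene, stayed in the largest. The Tenm2 TAD of 3D, chr11:36000001-40680000, contained the whole 4280 kb TAD of 2D and small TADs of 200 and 120 kb beyond it, neither with a gene start.

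**Figure D5:**
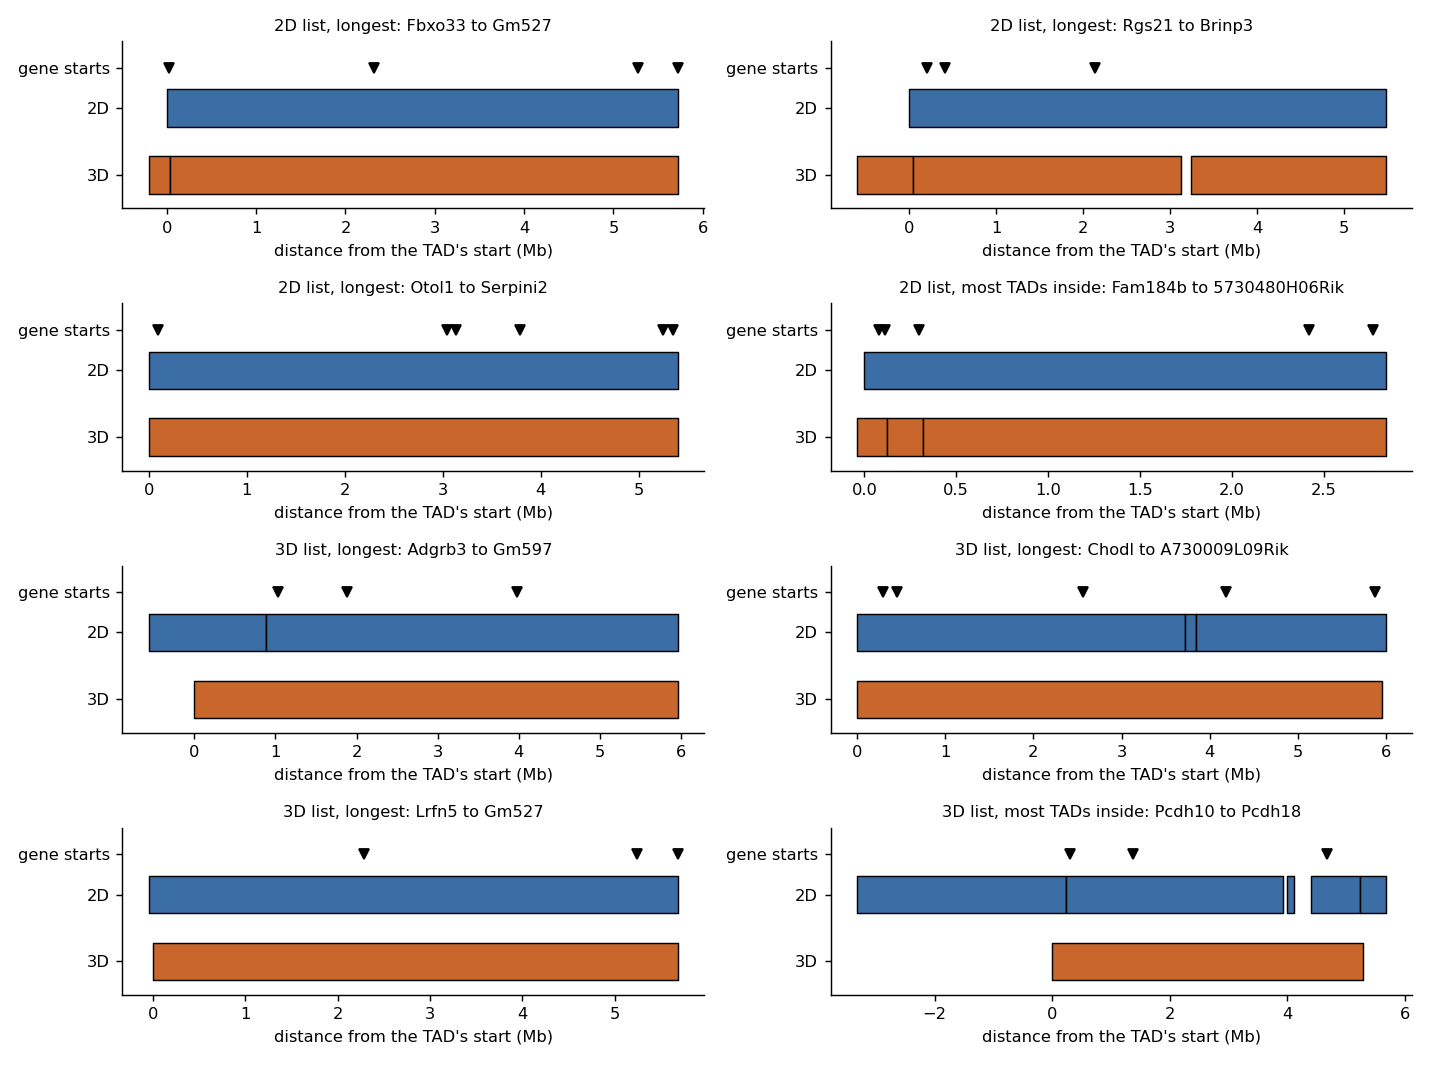
The 3 longest TADs of each list and, for each list, the long TAD that holds the most TADs of the other (in 3D the one named by rule among 7 that hold 3), drawn to scale as bars with the TADs of 2D (blue) and 3D (orange) that overlap it, over distance from the named TAD's start in Mb (x axis); triangles are protein-coding gene starts inside the named TAD, and white gaps lie in no TAD. The 5480 kb TAD of 2D (Rgs21 to Brinp3) is divided in 3D, and that of 5400 kb (Otol1 to Serpini2) is a single TAD in both.

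Stretches without any gene start were partly divided too. The longest such TAD of 2D, chr14:80240001-84360000 (4120 kb, 36.7% GC), corresponded to 600 and 3520 kb in 3D. The longest of 3D, chr5:54120001-57680000 (3560 kb, 37.1% GC), was identical in 2D. The lone-gene TADs of Cdh8 and Nova1 differed by 40 and 80 kb at one end.

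Merged over both lists, the long TADs covered 235 separate stretches with 752 Mb, 30.5% of the autosomes. Of these, 206 held a long TAD in both lists, 196 of them 1 in each. Another 9 stretches had one in 2D only and 20 in 3D only. The 9 of 2D had a median size of 2040 kb, next to the threshold, and the largest 3D TAD over them a median of 1960 kb. The 20 of 3D had a median of 2700 kb, reaching 4040 kb, the largest 2D TAD over them had a median of 1820 kb, and the 2D list divided 17 of the 20. The TAD of 4040 kb, chr7:68320001-72360000, held Nr2f2, a nuclear receptor gene of vein and organ development, with Arrdc4, Gm10295 and Mctp2, and was 1120, 880 and 2000 kb in 2D. A 2880 kb TAD of 3D, chr3:16240001-19120000, held Cyp7b1, an enzyme gene of oxysterol metabolism, and its largest TAD in 2D measured 1640 kb.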

How the data were processed

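The deposited values are TAD start and end positions in base pairs of mm10, in 1 list per culture, from 4 samples. The authors mapped in situ Hi-C reads with Bowtie2 (version 2.2.9), normalized 40 kb matrices with ICE, scaled both cultures to the same total contacts per chromosome, and called TADs with Armatus at a gamma of 0.8. Library counts were not used here. Values were computed with pandas (2.3.3), numpy (2.4.6) and scipy (1.17.1) under Python 3.11.15, on GRCm38.p6 (RefSeq), the build mm10 names, with GENCODE M21 genes. A gene belonged to the TAD that holds its start. GC, repeats and motif matches were counted in 40 kb bins. A counterpart has both ends within 40 kb, and a TAD lies inside another when it extends past it by no more than 40 kb. Shares carry 95% Wilson intervals, which cover counting error only, and medians carry order-statistic intervals. The functions that compare the lists and assign genes were tested on simulated lists.

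The long TADs and gene lists were chosen with earlier results of these data known, and 1 gene list was corrected for genes that matched it by spelling alone. The regions named were, in each list, the 3 longest, the longest without a gene start, those with the most starts and the highest and lowest GC, the one holding the most TADs of the other list (1 of 7 tied in 3D), and the longest run. The genes named were those of the 3 longest TADs, the 10 longest, the lone genes of the 4 longest single-gene TADs and some of up to 10 genes per list. Others were named after their values were seen. The values of 1 gene are not reported here. Alternatives were other size thresholds, distances, matching rules, gene and base classes, motif letters and zone depths. TADs are not replicates, so no test was run.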

Additional observations from a re-analysis of the deposited data

How the results depend on the processing

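Of 50 alternatives, 20 stayed within the result's interval or within 1.5 times its count, and 30 moved beyond it. No difference between long and other TADs, or between ends and interior, changed sign. Values are given for 2D and then 3D. The count of long TADs was 359 and 351 over 1500 kb, and 91 and 102 over 3000 kb. A counterpart was found for 39.7% and 38.2% with identical ends, 75% and 70.8% with 80 kb allowed, and 89.7% and 85.4% by reciprocal overlap of 80%. Gene starts per Mb, long minus other TADs, were -7.95 and -8.47 over 1500 kb, and -14.0 and -14.5 with all genes but pseudogenes. GC percent, long minus other TADs, was -4.92 and -4.96 over 1500 kb, -6.12 and -5.93 over 3000 kb, -6.24 and -6.24 outside repeats, and -4.20 and -4.23 with bases pooled. With gaps of up to 80 kb allowed, 86.6% and 82.4% touched a TAD on both sides, beside 71.9% and 81.6% of the other TADs. In 3D the shares of long and other TADs then lay close together. With C fixed at position 4 of the CTCF core the share of border bins with a match exceeded that of inner bins by 4.25 and 4.61 percentage points. The median promoter had -12.0 CG pairs relative to other genes in both lists without repeat bases, and -7.0 in both without olfactory and vomeronasal receptor genes, which was chosen after seeing the data. These shifts follow from the wider or narrower definitions themselves for thresholds and distances, and for the others the cause was not tested. No paired analysis was possible because the replicates were combined before TADs were called, and for the same reason no replicate could be left out. The depth behind each TAD is unknown, positions are exact to 40 kb at best, and the share of differences between the lists that repeated libraries of 1 culture would show was not measured.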

Other observations

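The X chromosome, which lies outside the autosomal set, held 12 TADs over 2000 kb of 246 in the 2D list and 13 of 261 in the 3D list, over 33.96 and 37.88 Mb. They had a median of 4 gene starts and of 37.6% and 37.5% GC, and none was without a gene start. The longest measured 3720 kb in 2D and 4640 kb in 3D. In either list 7 had a counterpart, and the other list divided 0 of those of 2D and 2 of those of 3D.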
